A study of Caenorhabditis elegans with 2 samples.

Results

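The vps, sec and rab genes of Caenorhabditis elegans encode machinery that moves membrane vesicles between compartments, and they were taken here as the protein-coding genes whose name is vps-, sec- or rab- followed by a number in Ensembl WBcel235. There were 70 such genes among 19973 protein-coding genes, with 31 vps, 19 sec and 20 rab genes. They were set against the sites bound by RNT-1, the RUNX-type transcription factor of the worm, as mapped by ChIP-seq, in which chromatin attached to a protein is precipitated and its DNA sequenced. The animals were hermaphrodites of strain OP462, genotype unc-119(tm4063) III; wgIs462, a stable line in which RNT-1 carries a C-terminal GFP-FLAG tag, and an antibody to GFP was used for the precipitation. Larvae were starved at the first stage (L1) after bleaching and collected 6 h after synchronization. There were 2 biological replicates in 1 group and no second condition, so every comparison below is between genes or between replicates. Whole animals of 1 transgenic line were used, so a signal sums over all tissues, and binding of untagged RNT-1 was not measured.

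The values are the authors' own. Their list of 5560 peaks passed a threshold on the irreproducible discovery rate (IDR), which asks whether regions rank alike in replicates. A longer list of 30000 candidate regions from the pooled replicates, and 1 such list for each replicate, reach down into background. The weakest IDR peak had a signal of 71.56 and the strongest pooled candidate outside that list 71.54, so membership followed the pooled signal. Of the 5560 peaks, 133 had no region at their summit in replicate 1 and 151 had none in replicate 2. A listed peak is therefore not always matched in both. The signal of a region is on a scale the sources do not name and read depth is unknown, so signals are compared only within these lists. A gene is said to have a peak when the summit of an IDR peak lay within 2 kb of the start of any of its annotated coding transcripts, on the ce11 assembly. The vps and sec names were selected on the share of their genes nearest to an IDR peak, in an earlier search over gene-name families in these same data, and rab was set beside them. Their counts are therefore descriptions, and no test was made of them. Genes are not replicates, and exact intervals on shares cover counting error only.

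As background, transport vesicles bud from a donor membrane under a protein coat, are tethered to a target membrane and fuse with it through SNARE proteins. The sec genes were named in yeast for secretion and include the channel that threads new proteins into the endoplasmic reticulum, the COPII coat that leaves it and the exocyst that tethers vesicles to the plasma membrane. The vps genes were named for sorting to the yeast vacuole and act mostly at endosomes: ESCRT complexes bud cargo inward, HOPS and CORVET tether endosomes, and retromer returns cargo to the Golgi. The rab genes encode small GTPases of the Ras superfamily that mark each compartment and recruit its tethers and motors. Most of this machinery is used by every cell type.

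The windows that follow hold the summit and 50 bp on either side for 4 strong peaks per family. After them come the only windows at these genes that hold the RUNX core TGTGGT on either strand. Some stronger peaks are not printed, including those of vps-4 (753), sec-12 (848) and rab-18 (623). The exclusions are given with the data processing. Each window is labelled with the vps, sec or rab gene for which its peak was counted. Several of these summits lay nearer to the start of another gene. For example, the rab-19 summit lay 1870 bp from its start and 68 bp from that of Y62E10A.23. All windows are on the plus strand of ce11, read 5′ to 3′. Capitals mark the shorter core GTGGT or its reverse complement ACCAC. None of the first 12 windows holds the full core, and in 10 of them no letter is capital.
vps-22, chrIII:4963058-4963158: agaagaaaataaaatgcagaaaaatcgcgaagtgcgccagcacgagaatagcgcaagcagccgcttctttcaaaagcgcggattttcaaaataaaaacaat
vps-32.1, chrII:6589033-6589133: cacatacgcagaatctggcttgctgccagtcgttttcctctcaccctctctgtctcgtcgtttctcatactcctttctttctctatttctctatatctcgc
vps-33.1, chrIII:8700697-8700797: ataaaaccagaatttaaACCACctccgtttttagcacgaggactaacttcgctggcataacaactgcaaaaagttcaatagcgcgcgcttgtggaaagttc
vps-60, chrV:8606442-8606542: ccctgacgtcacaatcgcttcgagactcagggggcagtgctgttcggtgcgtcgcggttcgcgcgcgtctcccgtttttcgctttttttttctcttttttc
sec-61.G, chrV:10897328-10897428: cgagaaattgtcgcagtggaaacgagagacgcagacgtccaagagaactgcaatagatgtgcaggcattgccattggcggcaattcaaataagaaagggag
sec-6, chrII:5358341-5358441: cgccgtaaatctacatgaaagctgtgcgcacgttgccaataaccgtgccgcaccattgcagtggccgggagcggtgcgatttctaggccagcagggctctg
sec-61.B, chrIV:2389089-2389189: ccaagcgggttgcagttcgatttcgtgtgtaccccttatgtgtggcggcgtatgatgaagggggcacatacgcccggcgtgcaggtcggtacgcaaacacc
sec-24.1, chrIV:11566299-11566399: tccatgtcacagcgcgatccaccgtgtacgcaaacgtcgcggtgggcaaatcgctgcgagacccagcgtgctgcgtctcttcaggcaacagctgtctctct
rab-7, chrII:11967669-11967769: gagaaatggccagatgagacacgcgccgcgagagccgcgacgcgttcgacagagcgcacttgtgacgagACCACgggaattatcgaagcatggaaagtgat
rab-19, chrIV:13386206-13386306: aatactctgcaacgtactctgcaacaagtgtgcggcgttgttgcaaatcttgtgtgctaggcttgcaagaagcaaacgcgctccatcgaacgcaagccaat
rab-33, chrIII:10505343-10505443: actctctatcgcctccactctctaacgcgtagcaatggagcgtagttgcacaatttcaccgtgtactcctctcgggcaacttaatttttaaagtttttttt
rab-14, chrX:15607619-15607719: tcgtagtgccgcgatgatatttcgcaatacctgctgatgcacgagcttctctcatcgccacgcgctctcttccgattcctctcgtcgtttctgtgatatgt
vps-29, chrIII:10114804-10114904: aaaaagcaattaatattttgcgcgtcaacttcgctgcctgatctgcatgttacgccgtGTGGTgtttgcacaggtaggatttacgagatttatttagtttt
sec-3, chrX:3099975-3100075: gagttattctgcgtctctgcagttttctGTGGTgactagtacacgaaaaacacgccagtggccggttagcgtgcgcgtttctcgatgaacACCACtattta

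Of the 70 genes, 45 had a peak (64.3%, exact Clopper-Pearson 95% interval 51.9 to 75.4%), against 5056 of 19973 protein-coding genes (25.3%). The sec genes had peaks most often, at 15 of 19 (78.9%, interval 54.4 to 93.9%), followed by vps at 19 of 31 (61.3%, 42.2 to 78.2%) and rab at 11 of 20 (55%, 31.5 to 76.9%). These intervals overlap, so the order of the 3 families is not resolved by their counts. When a peak counted only for the gene whose start was nearest to the summit, the families kept 9 sec, 14 vps and 5 rab genes, 28 in all (40%), against 17.1% of all genes. With starts within 500 bp, 14 sec, 11 vps and 2 rab genes had a peak, 27 in all (38.6%), against 14.7% of all genes. Under that rule sec stood at 73.7%, vps at 35.5% and rab at 10%.

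**Figure D1:**
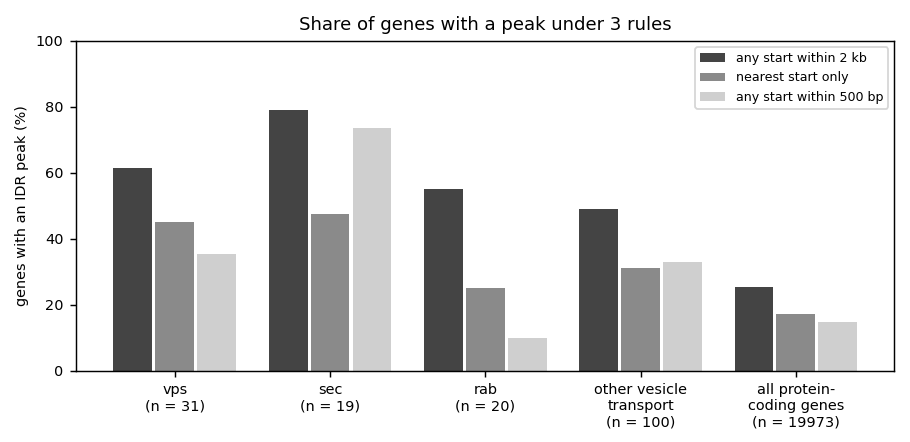
Percent of genes with an IDR peak, for vps, sec, rab, a list of other vesicle transport genes and all protein-coding genes; bar shades stand for 3 ways to assign a peak to a gene. Within 500 bp of a start the sec bar stays at 73.7% while the rab bar stands at 10%.

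Among the vps genes, the 3 strongest peaks were at the ESCRT genes vps-22, vps-4 and vps-32.1, followed by the HOPS and CORVET gene vps-33.1. Where a signal is followed by a pair of values, these are replicate 1 and then replicate 2. There were peaks at 9 of 11 ESCRT genes, and 6 of those 9 were among the 1112 strongest of the 5560 peaks, a share that was 31.9% over all genes with a peak. With the nearest start only, 6 of the 11 had a peak (54.5%), and within 500 bp 5 had one (45.5%), against 17.1% and 14.7% of all genes. The highest ESCRT peak was at vps-22 (WBGene00016167), a subunit of ESCRT-II, at chrIII:4963012-4963207, with a pooled signal of 1004, rank 193 of 5560. Replicate 1 gave 521 there and replicate 2 gave 494. The summit lay 615 bp upstream of vps-22 but 64 bp upstream of C27F2.9, which is on the same strand. The other ESCRT-II subunits followed, vps-25 with a signal of 573 (replicates 311 and 264) and vps-36 with 148 (77.0 and 72.3). All 3 ESCRT-II genes therefore had a peak, and their signals lay farther apart than the replicates of any of them.

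The ATPase gene vps-4, which takes ESCRT-III filaments apart, had 3 peaks, more than any other of the 70 genes. Its strongest lay 247 bp upstream of the start with a signal of 753, and the replicates gave 341 and 421. The other 2 lay 1263 and 1593 bp upstream, closer to the start of gsa-1 on the other strand, with signals of 197 and 202. At the peak of 202 the replicates were far apart, with 157 in replicate 1 and 69.0 in replicate 2. At the peak of 197 replicate 1 gave 57.5 and no region of replicate 2 held the summit, so the replicates cannot be compared there.

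Genes for ESCRT-III subunits that form the filaments had a peak at vps-32.1 (645; replicates 366 and 281), vps-60 (541; 274 and 268), vps-20 (256; 140 and 117) and vps-24 (238; 133 and 112), and none at vps-2. The peak counted for vps-20 lay 1591 bp downstream of its start, past the end of the gene. Its summit was in an intron outside vps-20, 266 bp downstream of the start of Y65B4A.2. For ESCRT-I, which takes over cargo from ESCRT-0, vps-37 had a peak (444; 211 and 237) and vps-28 had none. Neither vps-2 nor vps-28 had even a candidate region within 2 kb.

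Tethering and retrieval genes were mixed. Of the 8 HOPS and CORVET genes, 4 had a peak. They were vps-33.1 (584; replicates 325 and 270) and its paralogue vps-33.2 (258; 130 and 135), both SNARE-binding proteins of the Sec1/Munc18 type, the core subunit gene vps-16 (336; 165 and 182) and the HOPS subunit gene vps-39 (292; 160 and 138). The core subunit genes vps-11 and vps-18 had none, nor had vps-8 and vps-41, whose yeast counterparts are specific to CORVET and to HOPS. Candidates below the threshold lay near vps-8 (41.1; 30.9 and 25.8) and vps-41 (38.7; 17.8 and 16.9). Weaker peaks marked the retromer genes vps-29 (91.0; 58.1 and 27.8) and vps-26 (78.2; 37.4 and 35.7). No other of the 45 genes had so weak a strongest peak as vps-26. The third retromer gene, vps-35, missed the list with a candidate of 71.4, where the weakest IDR peak of all had 71.6.

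GARP and EARP, which tether vesicles that return to the Golgi or recycle from endosomes, had peaks at vps-54 (145; replicates 89.5 and 55.7) and vps-50 (120; 67.4 and 63.7), 2 of 5 genes. Below the threshold were vps-53 (49.3) and vps-52 (46.1), and vps-51 had no candidate. Both genes of the lipid kinase complex that marks endosomes with phosphatidylinositol 3-phosphate, vps-34 and vps-15, were without a peak; vps-15 had a candidate of 65.3 and vps-34 had no candidate. The remaining vps genes had peaks: vps-45, another Sec1/Munc18 protein (299; 156 and 152), and vps-13, known in yeast and mammals for moving lipids between membranes (106; 71.6 and 40.97).

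**Figure D2:**
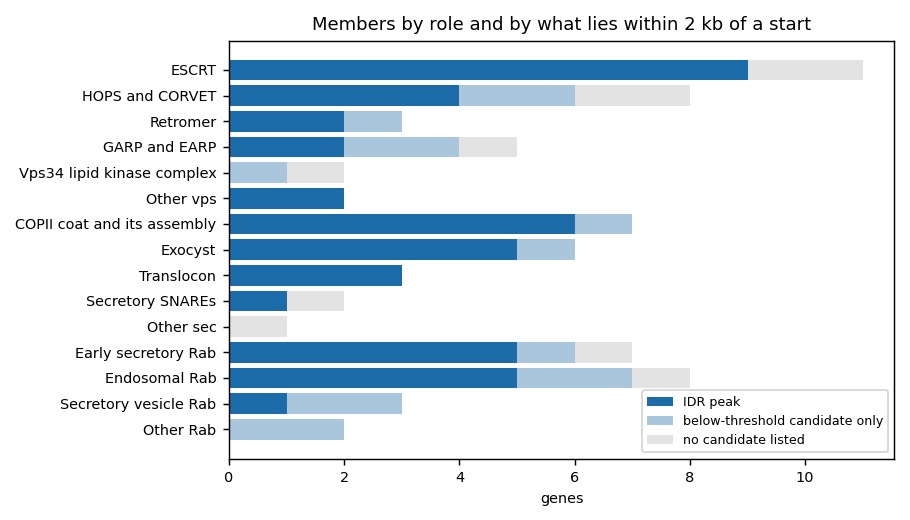
Number of vps, sec and rab genes in each role group with an IDR peak, with only a below-threshold candidate, or with no candidate listed within 2 kb of a start. ESCRT, COPII, exocyst and translocon genes are mostly dark, with 9 of 11, 6 of 7, 5 of 6 and 3 of 3 genes with a peak.

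The sec genes held the strongest peaks of all 70. At sec-61.G (WBGene00001303), the gamma subunit of the translocon channel, the peak at chrV:10897254-10897491 had a signal of 2174, rank 24 of 5560, and the replicates gave 1098 and 1100. The beta subunit gene sec-61.B reached 1423 (766 and 679), and the alpha subunit gene sec-61.A, which encodes the pore itself, had 124 (76.0 and 68.1). Each of the 3 translocon genes thus had a peak. The sec-61.A peak was alone among the sec peaks in lying downstream of the start, by 301 bp, and the ribosomal protein gene rps-18 also had a start within 2 kb of it.

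Exocyst genes had a peak at 5 of 6. At sec-6 the signal was 1709 (replicates 905 and 814), 1161 bp upstream of the annotated start and only 204 bp upstream of F09E5.11 on the other strand. It was 714 at sec-3 (408 and 314), 557 at sec-15 (278 and 282), 168 at sec-5 (86.1 and 78.2) and 79.7 at sec-8 (52.1 and 25.1). Only sec-10 had no peak. Subunits of this 1 tether thus ranged from rank 55 to rank 5104 of 5560.

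COPII genes had a peak at 6 of 7, all within 377 bp of the start. They were sec-12, whose product activates the small GTPase that starts the coat (848; replicates 440 and 417), the cargo-binding subunit gene sec-24.1 (801; 400 and 413), the inner coat gene sec-23 (408; 197 and 224), the outer coat gene sec-31 (110; 51.8 and 61.9) and the scaffold genes sec-16A.2 (217; 117 and 112) and sec-16A.1 (91.5; 59.4 and 38.5). The SNARE gene sec-22 had a peak of 124 (74.2 and 56.6), whereas the SNARE gene sec-20 and the signal peptidase gene sec-11 had no candidate region.

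Among the rab genes the strongest peaks were at GTPases of endosomes and of the early secretory pathway. The late endosome gene rab-7 (WBGene00004271) had the highest, 977 at chrII:11967623-11967828, rank 202 of 5560, with 588 in replicate 1 and 392 in replicate 2. It was followed by rab-18, known in mammals from the endoplasmic reticulum and lipid droplets (623; 329 and 310), and by the early endosome gene rab-5 (528; 275 and 256). The recycling endosome gene rab-11.1 had 437 (237 and 209), rab-19 had 433 (273 and 168), and rab-33, of the Golgi in mammals, had 415 (241 and 183). Replicate 1 was the higher of the pair at each of these 6 genes.

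Further rab peaks were found at rab-14 (379 and 176), at the basolateral recycling gene rab-10 (310; 187 and 126), at rab-1 of transport from endoplasmic reticulum to Golgi (165 and 96.8), at the Golgi gene rab-6.1 (113; 67.9 and 50.1) and at rab-8 (92.1; 53.5 and 35.8), which serves transport to the plasma membrane. The stronger rab-14 peak had no matching region in replicate 1 and 201 in replicate 2, which means that no region of replicate 1 held that summit and not that the signal there was 0. The weaker rab-14 peak had 65.7 in replicate 1 and 101.4 in replicate 2, and the stronger rab-1 peak had 108 and 59.2. Without a peak were the synaptic vesicle gene rab-3, its relative rab-37, and rab-6.2, rab-11.2, rab-21, rab-28, rab-30, rab-35 and rab-39. Of these, rab-30 (36.2), rab-28 (35.2), rab-11.2 (33.4), rab-3 (31.3) and rab-37 (26.9) had weak candidates. Thus 5 of 8 endosomal, 5 of 7 early secretory and 1 of 3 secretory vesicle Rab genes had a peak.

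**Figure D3:**
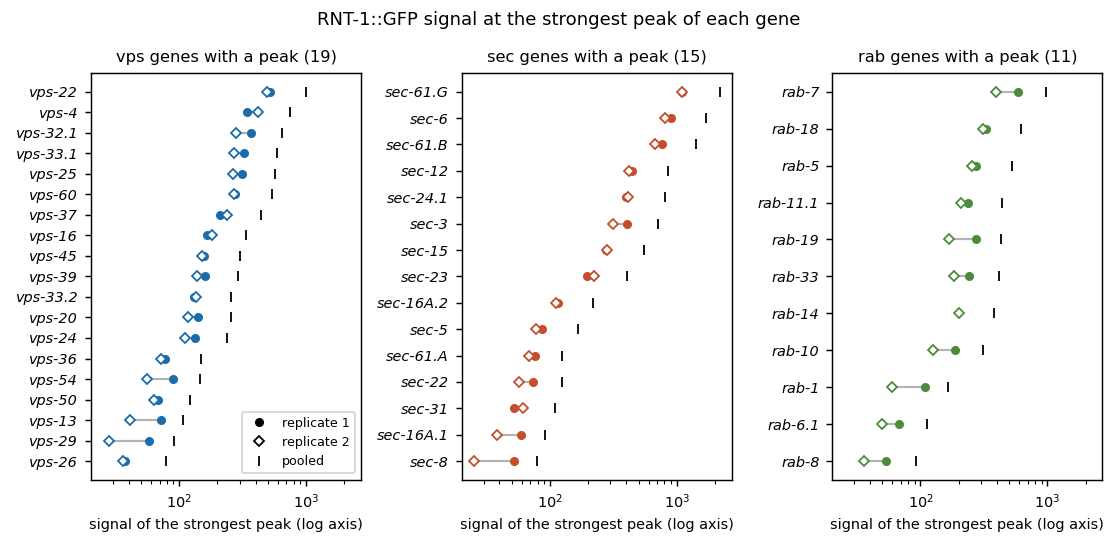
Signal on a log axis at the strongest peak of each of the 45 genes with a peak, by family: filled circles are replicate 1, open diamonds replicate 2 and ticks the pooled list. Replicates lie close together at the strong sec peaks, such as 1098 and 1100 at sec-61.G, and farther apart at weak peaks such as vps-29 and sec-8; rab-14 has no circle.

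By signal the families overlapped. The median strongest peak of a gene was 415 for rab, 408 for sec and 292 for vps, over ranges of 92.1 to 977, 79.7 to 2174 and 78.2 to 1004. Over all genes with a peak that median was 234.9. Among the 1112 strongest peaks were those of 7 of the 11 rab genes, 8 of the 15 sec genes and 7 of the 19 vps genes, 22 of 45 in all (48.9%), where the share over all genes with a peak was 31.9%. With ranges that overlap this far, the medians give no order among the families.

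The sec peaks lay closest to the start and the rab peaks farthest, with ranges that overlap. The median distance from the start of a gene to the summit of its strongest peak was 235 bp for sec (range 55 to 1161), 364 bp for vps (2 to 1796) and 788 bp for rab (16 to 1870), where it was 470.5 bp over all genes with a peak. Strongest peaks lay within 500 bp of the start at 14 of 15 sec genes, 11 of 19 vps genes and 1 of 11 rab genes. The rab exception was rab-18, whose summit was 16 bp downstream of a start; rab-14 had its weaker peak 455 bp upstream. The sec exception was sec-6. At the far end were rab-19 at 1870 bp and vps-29 at 1796 bp, the members closest to the limit of 2 kb from inside, while the nearest IDR summit to vps-8, the first outside, was 2440 bp away.

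**Figure D4:**
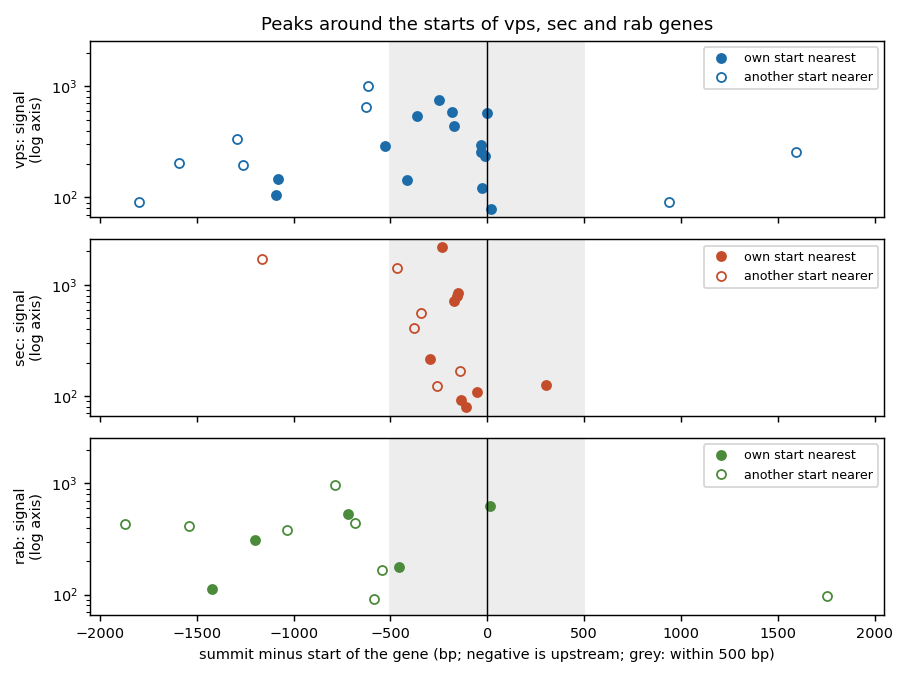
Signal of each of the 50 peaks near a vps, sec or rab gene, on a log axis, against the distance of its summit from the start of that gene in bp, negative upstream; open circles have the start of another gene nearer. Most sec peaks lie in the grey band of 500 bp and most rab peaks lie upstream of it.

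Nearly all of these peaks were upstream, and many shared their interval with another gene. Of the 50 distinct peaks, 43 lay upstream of the nearest such start of any gene (86%, exact interval 73.3 to 94.2%), where the share was 77.7% of the 4309 IDR peaks within 2 kb of a start. The same number, 43, had their summit in the 1 kb upstream of the start of some coding gene, here called a promoter and read before other classes, against 67.8%. The others were intergenic at vps-36, rab-6.1 and rab-10, in an intron (vps-20), in a noncoding exon (vps-13), in a coding exon (the weaker rab-1 peak) and in the 5′ UTR of gsa-1 (a vps-4 peak). That intron and that coding exon lay past the ends of vps-20 and rab-1. No peak was counted for more than 1 of the 70 genes. In 40 of the 50 (80%) at least 1 further gene had a start within 2 kb, against 41.3% of all IDR peaks near a start. A peak near several starts could enter the 50 through any of them, while the 41.3% counts each peak alike. These shares are therefore not drawn in the same way.

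Sharing of an interval matters for which gene a peak is nearest to. Counting every peak of a gene, 17 of the 45 genes had the nearest start to none of theirs. Over all protein-coding genes with a peak this was so for 1632 of 5056. At 27 of the 45 genes the strongest peak was nearest to the gene itself, and at 18 another start was nearer. That other gene was on the opposite strand in 14 cases. For sec these were pir-1 beside sec-5, F09E5.11 beside sec-6, C28G1.2 beside sec-15, stau-1 beside sec-22, dcs-1 beside sec-23 and trap-3 beside sec-61.B. The last pair is a translocon subunit gene and the gene of a translocon-associated protein. For rab they included the ribosomal protein gene rpl-7 beside rab-11.1, nipi-3 beside rab-14, and D1037.1 beside rab-8, and for vps the mitochondrial ribosomal protein gene mrps-17 near vps-16 and icd-1 near vps-32.1. The other 4 were on the same strand, at vps-20, vps-22, vps-29 and rab-7. From position alone, a peak beside such pairs cannot be given to either gene.

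The layout of the genes themselves was compared with that of all genes. Each gene was classed by its nearest upstream coding gene only. This neighbour was on the opposite strand, within 2 kb or overlapping, for 31 of the 70 (44.3%), against 26.6% of all protein-coding genes. Of those 31, 23 had a peak (74.2%), where 37.2% of all genes so placed had one. The nearest upstream coding gene was on the same strand and ended within 500 bp, or overlapped, for 24 of the 70 (34.3%), against 20% of all genes. Worm genes so closely spaced are often transcribed together from the first gene of a run, which was not measured here. Of these 24, 12 had a peak (50%), where 23.1% of all genes so placed had one.

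Several vps genes without a peak stood in a run whose first gene had one. Of 12 closely spaced vps genes, 5 had a peak within 2 kb of their own start, and 10 had a peak within 2 kb of the start of the first gene in the run. Over all genes so placed, 1630 of 3997 (40.8%) had a peak at the first gene, and 965 of them had none of their own. At the first gene there was a peak for 4 of 7 sec genes and 3 of 5 rab genes. Each of these also had a peak within 2 kb of its own start. The strongest peak was the same at both starts for sec-6, sec-12, sec-16A.2, rab-7 and rab-19. Among the vps genes this held for vps-16, vps-22 and vps-29. The 5 vps genes without a peak of their own but with one at the first gene were vps-8 behind tag-335 (269), vps-11 behind the nucleoporin gene npp-19 (372), vps-34 behind the Integrator subunit gene ints-1 (261), vps-35 behind F59G1.4 (94.4) and vps-41 behind Y34B4A.2 (103). Their own starts lay 2602, 4986, 16509, 11646 and 4334 bp from that first start. For vps-28, vps-53, sec-10, sec-11, sec-20, rab-21 and rab-28 there was a peak neither at their own start nor at the first gene. With the first gene counted, a choice made after the data were seen, 50 of the 70 genes had a peak (71.4%), against 30.1% of all genes: 24 vps, 15 sec and 11 rab.

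Of the 25 genes without a peak, 15 had a below-threshold candidate within 2 kb and 10 had none. Over all protein-coding genes without a peak, 7960 of 14917 had such a candidate. Among the 25 genes, the 2 strongest candidates per family were vps-35 (71.4) and vps-15 (65.3), rab-21 (68.8) and rab-39 (47.4), and sec-24.2 (38.8) and sec-10 (29.7). At vps-35 the candidate lay 124 bp upstream of the start, replicate 2 gave 51.8 and replicate 1 had no matching region. At vps-15 it lay 79 bp upstream with 20.2 in replicate 1 and 39.6 in replicate 2, and at rab-21 it lay 1543 bp upstream with 40.8 and 23.1. The 10 genes with no candidate were vps-2, vps-11, vps-18, vps-28, vps-34, vps-51, sec-11, sec-20, rab-6.2 and rab-35. They had no region within 2 kb in the pooled list, which ends at 26.1, and this is a limit and not a measured zero.

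**Figure D5:**
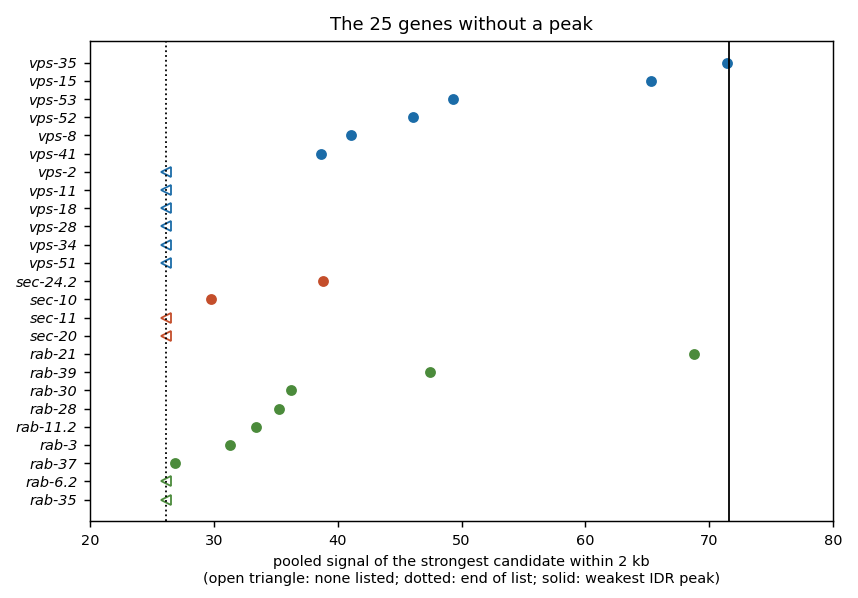
Pooled signal of the strongest candidate region within 2 kb of the start of each of the 25 genes without a peak; triangles mark the 10 genes with no candidate, at the end of the list (26.1), and the solid line is the weakest IDR peak (71.6). The candidates of vps-35, rab-21 and vps-15 lie nearest to the line, at 71.4, 68.8 and 65.3.

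For vps-51, a subunit gene of GARP and EARP, the lack of a candidate coincided with a wider blank. Its start at chrI:5807291 lies in 67344 bp without any candidate region, and the rnt-1 gene itself (chrI:5776093-5788611) lies in the same span. The median gap between candidates was 1223 bp, and 61 of 29965 gaps were longer than the span around vps-51. No other of the 70 genes lies in that span. Whether regions in this span could be listed at all was not tested, so no upper value can be given for vps-51.

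Replicates gave similar values at most of the 50 peaks. Over the 48 peaks matched in both, the median ratio of replicate 2 to replicate 1 was 0.891, where it was 0.895 over all matched IDR peaks, and the median coefficient of variation was 10.96%, against 15.6%. The ratio ran from 0.440 at the vps-4 peak of 202 to 1.54 at the weaker rab-14 peak. Values more than 2-fold apart were found at 3 of the 48 peaks, that of vps-4 just named, vps-29 and sec-8. Over all matched IDR peaks this was so for 423 of 5282. Among the 5560 strongest regions of each replicate were 43 of the 50 peaks (86%), against 76.7% of all IDR peaks. Counting only those peaks, 41 of the 70 genes had one (58.6%), where 21.5% of all genes did: 17 vps, 14 sec and 10 rab. The genes that dropped out were vps-26, vps-29, sec-8 and rab-8.

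Paralogues are set side by side here, where 64.3% of all 70 genes had a peak. Whether partners differed more often than unrelated members was not tested. Of 5 pairs with the same number, both had a peak at vps-33.1 and vps-33.2 (584 and 258) and at sec-16A.1 and sec-16A.2 (91.5 and 217). In the other 3 pairs, 1 gene had a peak and its partner did not: sec-24.1 had 801 while sec-24.2 had a candidate of 38.8, rab-11.1 had 437 while rab-11.2 had a candidate of 33.4, and rab-6.1 had 113 while rab-6.2 had no candidate. For the sec-24 pair the candidate of sec-24.2 lay 54 bp upstream of its start, with 18.4 in replicate 1 and 19.6 in replicate 2, against 400 and 413 at the peak of sec-24.1. That difference is larger than the spread between replicates.

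A list of other vesicle transport genes with other names was read in the same way. Of 108 listed symbols 100 were in the annotation, and 49 of them had a peak, a share of 49.0% that lies between that of the 70 genes (64.3%) and that of all genes (25.3%). The COPI coat, which carries proteins back to the endoplasmic reticulum, had peaks at 6 of 7 genes, led by copb-1 (1222.5; replicates 675 and 557) and copz-1 (1216; 636 and 590), both with the start of another gene nearer to the summit. The COG tether of the Golgi had 6 of 7, with 663 at cogc-2 (352 and 308). A peak of 988 lay 24 bp upstream of the exocyst gene exoc-7 and within 2 kb of the COG gene cogc-5. SNAREs and their partners had 12 of 25, including vti-1 (866; 479 and 399) and nsf-1 (547; 282 and 285), whose product recycles SNAREs.

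Adaptor and clathrin genes had 7 of 14, led by dpy-23 (597; replicates 283 and 322), and Rab regulators had 6 of 12, led by rbg-3 (616; 335 and 292). Lower shares were seen for ESCRT and sorting nexin genes without vps names (4 of 12), for TRAPP (3 of 10) and for the ARF group (1 of 4). In the first of these groups did-2 (150), snx-1, snx-3 and snx-17 had a peak. The genes tsg-101, hgrs-1, stam-1, mvb-12, alx-1, snx-6, snx-14 and snx-27 had none, so the share of the ESCRT genes named vps did not extend to this group. The ARF gene with a peak was sar-1, whose product starts the COPII coat, with 602 (335 and 282), so that both sar-1 and its activator gene sec-12 had a peak. Of the p24 cargo receptor genes 3 of 7 had a peak. The strongest, 1750 for tmed-3, lay 1930 bp downstream of its start and nearer to another gene.

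The RUNX core was present at few of these summits. TGTGGT, on either strand and within 50 bp of the summit, was found at 2 of the 50 peaks (4.0%, exact interval 0.488 to 13.7%), those of vps-29 and sec-3 printed above. Over all 5560 peaks it was found at 5.76%. The shorter GTGGT was at 12 of 50 (24%), against 18.9% of all peaks. The core had a density of 0.396 per kb at the summits of the 50 and 0.267 per kb in flanks 200 to 500 bp away, against 0.589 and 0.356 per kb for all peaks. A repeat seen by eye in the printed windows, CTCTCT or its reverse complement, was at 11 of the 50 windows (22%) and 25.2% of all. The median GC content of the windows was 49.0%, with 45.5% for vps, 50.5% for sec and 54.5% for rab, against 46.5% for all peaks.

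By chromosome, every member on V had a peak, 8 of 8, where 16.9% of all protein-coding genes on V did. They were vps-36, vps-37, vps-39, vps-54, vps-60, sec-23, sec-61.G and rab-1. The lowest share was on II, with 6 of 14 against 24.8% of its genes. On I, III, IV and X the counts were 10 of 15, 9 of 13, 6 of 10 and 6 of 10, against 32.24%, 33.7%, 23.3% and 28.4% of all genes there.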

How the data were processed

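ChIP-seq of GFP-tagged RNT-1 was read from 4 deposited region lists on ce11: the IDR list, the pooled candidates and 1 candidate list per replicate. Per the labels' protocols chromatin was sheared by sonication, and per the file headers of the accompanying notes the candidate lists derive from the replicate alignments and a control, and the IDR list from the candidate lists. The control was not analysed here. The sources used here name neither aligner nor peak caller, nor any version of them. The signal per region is the authors' own value; the deposited −log10 q (3.07 to 3.97 in the IDR list) was not used further. Lists on ce10 were not used, since no coordinate was converted.

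Starts were the 5′ ends of coding transcripts in Ensembl release 115 (WBcel235, the same sequence as ce11). Trans-splicing in worms can place an annotated start downstream of the true one. Every region end lay within the chromosome lengths of the RefSeq genome, from which windows were read. A summit was column 2 plus column 10, converted to a 1-based position. A peak counted for every gene with a start within 2 kb. A replicate region matched when it held the summit, and the nearest summit was taken. Printed windows exclude annotated UTRs and chromosome I. Python 3.11.15 and SciPy 1.17.1 were used, and assignment and motif search were tested on simulated data.

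The members, role groups and lists were chosen with earlier results of these data known. Named genes were the 6 strongest per family, the 2 strongest candidates per family, genes with several peaks, the weakest, the 3 largest replicate differences and paralogue pairs. Further members are named to account for all of them, and genes of the other list were named after their values were seen. Replicates are biological per the labels, and 1 group gives no contrast between conditions.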

Additional observations from a re-analysis of the deposited data

How the results depend on the processing

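The count of 45 genes was 27 with starts within 500 bp, 28 with the nearest start only and 35 within 1 kb. It was 43 with only the most upstream start of a gene and 30 from the stronger 2780 peaks. As shares of the 70 genes these were 38.6, 40, 50, 61.4 and 42.9%, in that order. With either replicate left out the count was 43 to 45. For rab the 11 genes became 2 within 500 bp, 7 within 1 kb and 5 with the nearest start; without either replicate they were 10 to 11. For sec the 15 became 9 with the nearest start and 9 in the stronger 2780 peaks, and 14 to 16 without either replicate. For vps the 19 became 11 within 500 bp, and 18 to 19 without either replicate. Under each of these settings all genes also gave other counts, for instance 2940 within 500 bp and 3248 from the stronger peaks against 5056. By share of genes the order was sec, vps, rab under each of these settings except the most upstream start, where 54.8% of vps and 55% of rab genes had a peak. The settings reuse the same peaks, and vps and sec were selected on their nearest-start share while rab was not. A repeated order is therefore a description and does not resolve the order of the families. The causes of the shifts in these counts were not tested.

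The share of the 50 peaks with a RUNX site was 24% with GTGGT, 8.0% with 100 bp either side and 8.0% with TGTGGT or TGCGGT, in place of 4.0%. Counting a peak upstream of the start of the member gene gave 88% in place of 86%, and matching by an overlap of 50% of each region gave a replicate ratio of 0.908 in place of 0.891. All 18 strongest genes named by family kept a peak with either replicate left out. Of these 18, only 10 kept one with starts within 500 bp, and 10 with the nearest start only. Within 1 kb 15 kept one, and with the most upstream start 17. No paired analysis was possible because there was 1 group. Read depth is unknown, so weak peaks and genes without a listed candidate cannot be told from unbound ones.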
